A study of Mus musculus with 17 samples.

Results

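The genes described here carry glucose to pyruvate and decide what happens to the pyruvate: 33 genes fixed as a list of symbols, from glucose transporters to the mitochondrial pyruvate carrier and the pyruvate dehydrogenase complex. All 33 were matched by Ensembl ID among the 47729 genes listed, and all 33 were among the 15525 genes that passed the filter on low counts. They were measured in mouse embryonic stem cells by sequencing of polyadenylated RNA, in serum-free N2B27 medium with the cytokine LIF in every culture. L2i cultures also held CHIR99021, which inhibits GSK3, and PD325901, which inhibits MEK, a pair that keeps cells naive. In LIM, PD325901 was combined with IWP2, a compound that stops cells from secreting Wnt. LFAI cultures held FGF2, Activin A and IWP2 and move cells toward the primed state.

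In the first set, there were 4 groups (L2i, LIM, LFAI for 35 h and LFAI for 4 days), each sequenced once from the R1 line and once from CGR8, so the line is the replicate (n = 2). Cells were at passage 26 to 34, on gelatin with a basement membrane extract. After 5 passages in L2i, R1 spent 4 further passages in LIM and CGR8 spent 6. The L2i cells had 10 and 8 passages in L2i, against 9 and 7 before the 35 h in LFAI and 3 and 9 before the 4 days, so medium, time and passage history cannot be told apart. A time course of R1 cells at passage 32, on gelatin with fetal calf serum, had 1 library at day 0 in L2i and 1 on each of days 1 to 4 in LIM or in LFAI. Its cells had 5 passages in L2i at day 0, 4 on days 1 to 3 and 3 on day 4. Day and passages in L2i thus cannot be fully told apart there.

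Glycolysis splits glucose into pyruvate in the cytosol, and most of its steps can be run by several isozymes that different genes encode. Pyruvate is then either reduced to lactate by lactate dehydrogenase and exported by monocarboxylate transporters, or carried into the mitochondrion and turned into acetyl-CoA by pyruvate dehydrogenase, which kinases of the Pdk family switch off. Naive pluripotent cells are known to use both glycolysis and respiration, and primed cells to rely on glycolysis with lactate export.

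Gene counts per library ranged from 12889029 to 22593805. Of the 11 markers of pluripotent states that were looked at, Pou5f1 was at 1190.4 CPM (counts scaled to library size) or more in all 8 libraries of the first set. Sox2, the other general pluripotency marker among them, was at 304 (R1) and 322 (CGR8) CPM in L2i and at 92.3 and 81.9 at 4 days of LFAI. In LIM it was at 224 and 280 CPM, and at 35 h of LFAI at 290 and 333. Prdm14, a naive factor, was at 73.9 CPM or more in L2i and at 0 after 4 days in LFAI. Of 17 markers of other cell types, Gata6, Sox17 and Elf5 stayed under 1 CPM in all 8 libraries, but others did not. Cdx2 was at 6.89 (R1) and 5.18 (CGR8) CPM in L2i, and Gata4 at 7.01 and 5.05 in LIM. Also in LIM, Gata3 was at 6.64 and 3.39 CPM, Pax6 at 57.7 and 25.9 and Thy1 at 5.20 and 19.8. Eomes was at 15.2 and 6.80 CPM after 4 days in LFAI, where Dcn was at 2.27 (R1) and 2.87 (CGR8). The summed level of the 17 was 54.4 to 71.4 CPM in L2i and at 35 h of LFAI, 169.7 to 231 in LIM and 394 to 611 at 4 days of LFAI, where Nes made up 366 and 578 CPM. Their part in the results below was not tested.

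One library of the time course went against its label. The library labelled day 1 in LFAI had Dusp6, a feedback phosphatase of ERK signalling that MEK inhibition keeps low, at 9.23 CPM, beside 9.90 on day 1 in LIM and 78.3 on day 2 in LFAI. Spry4, another ERK feedback gene, was at 2.86 CPM there and at 85.8 on day 2 in LFAI. The library so labelled differed at least 2-fold from day 1 in LIM in 602 of 15682 genes and from day 2 in LIM in 520. From day 2 in LFAI it differed in 3079. In the first set Dusp6 was already at 51.7 (R1) and 58.1 (CGR8) CPM after 35 h in LFAI. Values from this library are given under its label, and each statement on LFAI in the time course rests on days 2 to 4.

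The promoters of the 4 lactate genes are shown because Slc16a3 had the largest called fold of the 33 while its partner Slc16a1 was not called, and Ldhb fell at 4 days in LFAI while its partner Ldha was not called. The stretches are the 250 bases before a transcription start in RefSeq (GRCm38.p6), written 5′ to 3′ on the gene's strand. They lie at chr7:46845554-46845803 (plus strand) for Ldha, chr6:142507958-142508207 (minus) for Ldhb, chr11:120948817-120949066 (plus) for Slc16a3 and chr3:104638414-104638663 (plus) for Slc16a1. Of each gene only the first start listed was used, here and in the counts below. The annotated genes of Ldha and Slc16a3 begin upstream of these stretches, at 46841475 and 120948480, and other starts were not looked at. Capitals mark every ACGTG on either strand, a form of the core of the element that hypoxia-inducible factors bind. The other form, GCGTG, was neither counted nor marked, and it does occur in these stretches, that of Ldhb included. Where ACGTG is part of CACGTG, the E-box core that MYC and USF proteins bind, both strands match and 6 bases are in capitals.
Ldha: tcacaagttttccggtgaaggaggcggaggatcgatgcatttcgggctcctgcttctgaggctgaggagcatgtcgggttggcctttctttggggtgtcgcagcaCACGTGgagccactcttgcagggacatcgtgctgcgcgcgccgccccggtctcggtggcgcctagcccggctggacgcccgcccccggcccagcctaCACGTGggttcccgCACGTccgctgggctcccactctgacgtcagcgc
Ldhb: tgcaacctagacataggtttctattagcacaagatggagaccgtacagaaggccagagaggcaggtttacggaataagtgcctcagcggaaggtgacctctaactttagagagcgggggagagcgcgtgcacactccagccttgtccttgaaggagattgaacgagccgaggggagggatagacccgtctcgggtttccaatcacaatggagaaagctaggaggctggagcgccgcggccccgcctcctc
Slc16a3: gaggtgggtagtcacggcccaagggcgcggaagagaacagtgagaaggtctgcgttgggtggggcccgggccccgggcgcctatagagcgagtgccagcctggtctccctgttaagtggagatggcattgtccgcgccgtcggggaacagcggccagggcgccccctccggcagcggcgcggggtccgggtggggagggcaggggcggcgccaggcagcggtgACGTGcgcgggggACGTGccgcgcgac
Slc16a1: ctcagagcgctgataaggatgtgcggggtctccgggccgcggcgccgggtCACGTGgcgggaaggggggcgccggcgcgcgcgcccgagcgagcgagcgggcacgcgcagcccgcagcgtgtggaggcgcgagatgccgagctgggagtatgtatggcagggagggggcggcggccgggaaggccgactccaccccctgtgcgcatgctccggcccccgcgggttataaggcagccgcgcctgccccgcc
Ldha held 5 matches of ACGTG, Slc16a3 and Slc16a1 held 2 each, and Ldhb held 0. Each CACGTG counts as 2 matches, so those of Slc16a1 are 1 CACGTG, while those of Slc16a3 are 2 separate sites. Of the 32 members with a promoter in the table, 13 (40.6%) held ACGTG, against 16.6% of all 27025 promoters of this length, and 5 (15.6%) held CACGTG, against 6.05%. These shares were not matched for base composition, and GGGCGG, a GC box, was in 59.4% of the members and in 32.9% of all promoters. None of the 32 held TCAAGGTCA, the ESRRB site, ATCAAAG, a TCF site, or TTCNNNGAA, the STAT site, which 0.37, 3.23 and 7.18% of all promoters held.

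Group differences were fitted in edgeR (quasi-likelihood test) over all 8 libraries of the first set, adjusted by Benjamini-Hochberg over the 15525 genes, and calls were made where the adjusted p fell below 0.05. The ± values beside log2 folds are SE, with n = 2 per group. LIM against L2i asked what changes when MEK stays inhibited and Wnt activation is withdrawn. Of the 33 members, 5 were called higher, where 11.3% of all genes were, and 2 lower, where 7.81% were. After 35 h in LFAI against L2i 4 were called higher (background 7.35%) and 2 lower (7.16%). After 4 days against L2i 8 were called higher (21.5%) and 9 lower (23.3%). The 3 comparisons share the L2i libraries. The median log2 difference of the members was 0.27, 0.13 and -0.00061 in turn, beside 0.0055, -0.0011 and -0.0012 over all genes tested. In bulk RNA, fewer cells with a transcript and less transcript per cell cannot be told apart.

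**Figure D1:**
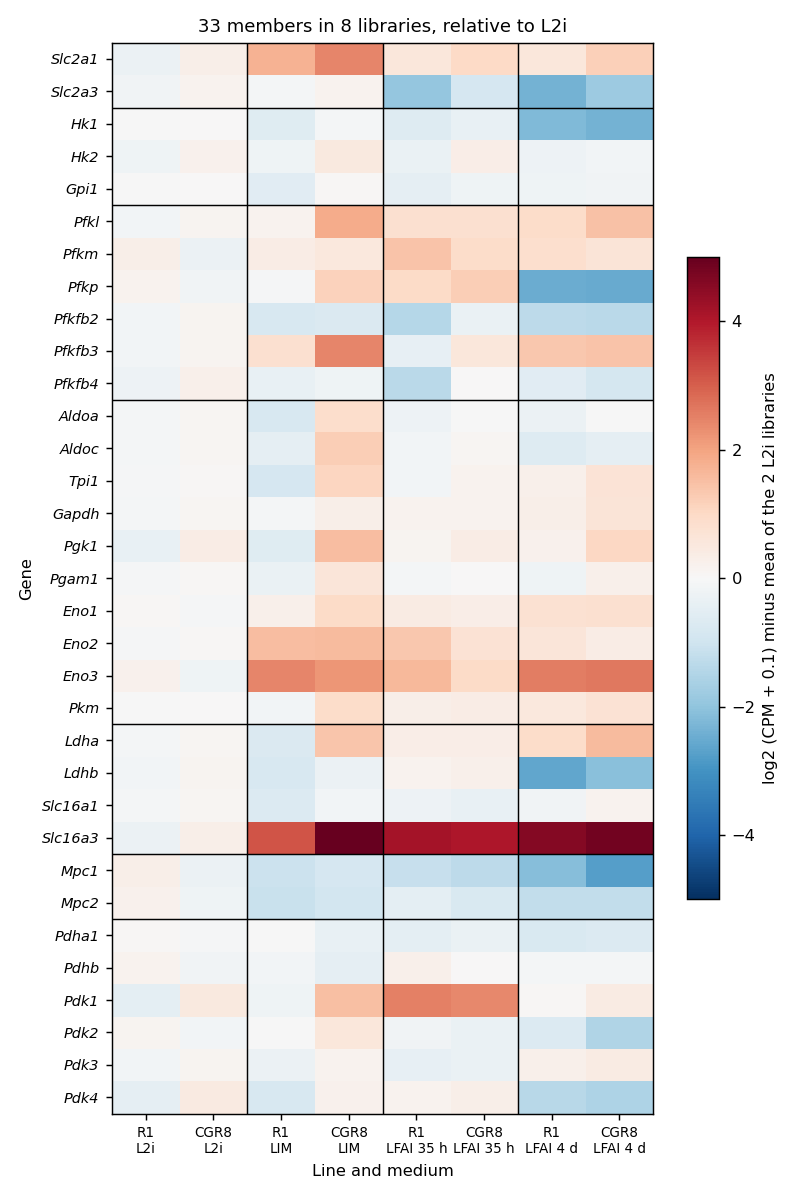
Heat map of the 33 genes (rows, grouped by role from transporters to pyruvate dehydrogenase kinases) in the 8 libraries of the first set (columns), as log2 (CPM + 0.1) minus the mean of both L2i libraries. Slc16a3 is high in every library outside L2i, Hk1, Pfkp and Ldhb are lowest in the 2 libraries of 4 days in LFAI, and the CGR8 LIM library is high for many members where the R1 LIM library is not.

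Of the glucose transporter genes, Slc2a3 fell in LFAI and Slc2a1 rose in LIM and at 4 days in LFAI. Slc2a3 encodes GLUT3, a high-affinity glucose transporter, and stood at 1251 (R1) and 1590.0 (CGR8) CPM in L2i and at 1309 and 1575 in LIM. In LFAI it was at 367 and 785 CPM at 35 h and at 273 and 404 at 4 days, below both L2i libraries in each case. The fall was 2.47-fold at 35 h (log2 -1.30 ± 0.33, adjusted p = 0.0329) and 4.19-fold at 4 days (log2 -2.07 ± 0.34, adjusted p = 0.0014) by the edgeR test. The 35 h call was lost without R1 L2i (adjusted p = 0.0795), CGR8 L2i (0.132) or R1 35 h (0.113), while the 4 day call was kept with each of the 8 libraries left out.

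Slc2a1 encodes GLUT1, the basal glucose transporter of most cells. Its levels were 156 (R1) and 236 (CGR8) CPM in L2i and 634 and 1034 in LIM. LFAI held 288 and 387 at 35 h and 287 and 437 at 4 days. Both LIM libraries lay above all 6 others. The rise in LIM was 4.26-fold (log2 2.09 ± 0.31, adjusted p = 0.0028) and was called with each library left out. In LFAI against L2i the rise was 1.85-fold at 4 days (adjusted p = 0.0414), lost without R1 L2i (0.226) or CGR8 4 days (0.259). At 35 h the difference was 1.72-fold (adjusted p = 0.124, and 0.0026 with the line block). Against LIM, Slc2a1 was lower at 35 h (2.47-fold, adjusted p = 0.0407) and at 4 days (2.30-fold, adjusted p = 0.019). Leaving out either 35 h or either LIM library ended the first call (adjusted p 0.0505 to 0.189), and leaving out R1 4 days (0.111) or CGR8 LIM (0.121) ended the second.

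Per exon length, Slc2a3 was 3.87 (R1) and 3.26 (CGR8) times as abundant as Slc2a1 in L2i. That ratio was 0.999 and 0.737 in LIM, while LFAI gave 0.617 and 0.982 at 35 h and 0.46 and 0.448 at 4 days. The ratio was thus below both L2i values in every other library. In LIM only Slc2a1 of the pair was called, and at 4 days both were. Over 12 gene pairs and 6 group comparisons, 2 libraries against 2 allow an exact two-sided permutation p of 0.333 at the smallest, so ratios are given as values, with the lines side by side. The absolute size of a ratio depends on the exon length used, the union of all annotated exons of a gene. That length is the same in every library, so changes between libraries do not depend on it.

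Hexokinases trap glucose as glucose 6-phosphate, and Hk1 is the form of most tissues while Hk2 is the inducible form. Hk1 stood at 172 (R1) and 181 (CGR8) CPM in L2i and 117 and 166 in LIM. LFAI held 114 and 137 at 35 h, then 37.7 and 34.1 at 4 days. Only the 4 day libraries were set apart, both under every other library. Against L2i the fall at 4 days was 4.92-fold (log2 -2.30 ± 0.19, adjusted p = 3.9e-05), against LIM 3.95-fold (adjusted p = 0.0002) and against 35 h 3.50-fold (adjusted p = 0.00021), each called with any 1 library left out. Hk2 ranged from 233 to 409.8 CPM over the 8 libraries and was called in none of the 6 comparisons. The per-length ratio of Hk2 to Hk1 accordingly went from 2.09 (R1) and 2.69 (CGR8) in L2i to 9.30 and 11.0 at 4 days. Gpi1, which isomerises glucose 6-phosphate, ranged from 364 to 561 CPM and was called in no comparison.

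Phosphofructokinase runs the committed step and has 3 subunit genes, Pfkl (liver form), Pfkm (muscle form) and Pfkp (platelet form). Pfkp was at 297 (R1) and 229.9 (CGR8) CPM in L2i and 248 and 575 in LIM. In LFAI it was at 513 and 619 at 35 h and at 47.3 and 45.6 at 4 days. It was thus at its highest mean at 35 h and at its lowest at 4 days, where both libraries lay under all others. The fall from 35 h to 4 days was 12.2-fold (log2 -3.61 ± 0.36, adjusted p = 0.00018), and that from L2i to 4 days 5.68-fold (adjusted p = 0.00054), both called with each library left out. At 35 h against L2i Pfkp was 2.15-fold higher without a call (adjusted p = 0.0558), which the line block gave (0.0364).

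Pfkl went the other way, from 142 (R1) and 168 (CGR8) CPM in L2i to 294 and 424 after 4 days in LFAI, with 268 and 272 at 35 h. The 2.31-fold rise at 4 days (log2 1.21 ± 0.43, adjusted p = 0.0483) was near the threshold and was lost with 6 of the 8 libraries left out in turn (adjusted p 0.0531 to 0.222, both L2i, both 35 h and both 4 day libraries) and by the DESeq2 Wald test (0.0724). In LIM the lines parted, at 174 (R1) and 555 (CGR8) CPM, and the 2.35-fold difference from L2i was called only with the line block (adjusted p = 0.0381, 0.0811 without). Pfkm rose 2.25-fold at 35 h (adjusted p = 0.0095), from 84.8 and 57.9 to 189 and 132 CPM, and 1.66-fold at 4 days (adjusted p = 0.025), to 126 and 111 CPM. The first was lost without R1 35 h (0.063), the second without CGR8 L2i (0.152), R1 4 days (0.107) or CGR8 4 days (0.0595). The per-length ratio of Pfkp to Pfkl was 1.04 (R1) and 0.682 (CGR8) in L2i and 0.952 and 1.13 at 35 h, but 0.0802 and 0.0537 at 4 days.

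The Pfkfb genes encode the bifunctional enzymes that make and remove fructose 2,6-bisphosphate, the activator of phosphofructokinase, and Pfkfb3 is the form weighted to its synthesis. Pfkfb3 stood at 12.0 (R1) and 14.9 (CGR8) CPM in L2i and 23.1 and 73.7 in LIM, with 10.1 and 19.8 at 35 h and 34.6 and 36.4 at 4 days of LFAI. It was called higher than L2i in LIM (3.60-fold, log2 1.85 ± 0.50, adjusted p = 0.0325) and at 4 days (2.64-fold, adjusted p = 0.0454). The first call was lost without CGR8 LIM (log2 0.79, adjusted p = 0.205), either L2i library (0.0977 to 0.161) or either 4 day library (0.0523 to 0.0531), and the second without either L2i or either 4 day library (0.107 to 0.183). With the line as a block, Pfkfb3 was also lower at 35 h than in LIM (adjusted p = 0.0196, 0.0808 without the block) and higher at 4 days than at 35 h (0.0119, 0.0771 without). Pfkfb2 fell 2.57-fold at 4 days against L2i (adjusted p = 0.0196), from 8.87 and 11.0 to 3.90 and 3.79 CPM, a call lost without CGR8 L2i (0.0782) or either 4 day library (0.0807 to 0.091). Pfkfb4 ranged from 1.89 to 5.98 CPM with no call.

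The lower glycolytic enzymes were among the most abundant members. In L2i, Aldoa stood at 1287 (R1) and 1647 (CGR8) TPM (CPM per exon length, rescaled to the same total in each library), Pkm at 1008 and 1127, and Pgam1 at 1003 and 1189 TPM. Aldoa (aldolase), Aldoc (its brain form), Tpi1 (triosephosphate isomerase), Pgk1 (phosphoglycerate kinase), Pgam1 (phosphoglycerate mutase) and Pkm (pyruvate kinase) were called in none of the 6 comparisons. Pkm, at 1574 and 1592 CPM in L2i and 2292 and 2629 after 4 days in LFAI, was 1.55-fold higher with adjusted p = 0.0925, and 0.0487 with the line as a block. Its M1 and M2 splice forms share the gene count and are not resolved. Levels of Pgk1 (18.2 and 34.3 TPM in L2i) are uncertain, since 53.9% of the 50-base words in its transcripts also occur in transcripts of other genes, as do 36.2% for Pgam1, 26% for Eno1, 25.8% for Pkm and 25.1% for Gapdh.

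Gapdh, glyceraldehyde 3-phosphate dehydrogenase, was 1.40-fold higher at 4 days in LFAI than in L2i (266 and 301 against 349 and 443 CPM, adjusted p = 0.0406), a call lost without either L2i, either 35 h or the CGR8 4 day library (adjusted p 0.0522 to 0.249). Eno1, the common enolase, rose 1.74-fold in that comparison (189.6 and 173 against 311 and 319 CPM, adjusted p = 0.0109), lost without CGR8 L2i (0.0697) or CGR8 4 days (0.0503). In LIM it was at 217 and 348 CPM, 1.56-fold above L2i (adjusted p = 0.0527, 0.043 with the line block).

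Eno3, the muscle enolase, was low in L2i at 7.86 (R1) and 5.91 (CGR8) CPM and higher in every other library. LIM held 37.2 and 32.2 CPM, and LFAI 21.3 and 13.5 at 35 h and 40.7 and 42.9 at 4 days. The rise over L2i was 5.01-fold in LIM (log2 2.33 ± 0.26, adjusted p = 0.0008), 2.51-fold at 35 h (adjusted p = 0.01) and 6.04-fold at 4 days (adjusted p = 0.0001). Its first and last calls held with each library left out, and the 35 h call was lost without R1 35 h (0.0675). Eno3 was also higher at 4 days than at 35 h (2.40-fold, adjusted p = 0.0044). It was lower at 35 h than in LIM (1.99-fold, adjusted p = 0.0475), a call lost with 6 of the 8 libraries left out (0.0538 to 0.213, all but CGR8 L2i and R1 35 h).

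Eno2, the neuronal enolase, was called only in LIM against L2i, 3.02-fold higher (2.21 and 2.39 against 6.82 and 7.07 CPM, adjusted p = 0.0171), and the call was lost without any 1 of these 4 libraries (0.0563 to 0.0842). Against LIM it was 2.11-fold lower at 4 days (adjusted p = 0.0511, 0.0454 with the line block). Per exon length Eno3 made up 11.4% (R1) and 9.67% (CGR8) of the sum of Eno3 and Eno1 in L2i, and 28.9 and 29.4% after 4 days in LFAI. The sequence that Eno1 shares with its retrogene copy makes the level of Eno1, and so this share, uncertain.

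Lactate dehydrogenase is a tetramer of A subunits (Ldha), which favour lactate formation, and B subunits (Ldhb), which favour the reverse. Ldhb stood at 581 (R1) and 688 (CGR8) CPM in L2i and 365 and 513 in LIM. LFAI cells held 719 and 756 at 35 h but 105 and 150.2 at 4 days. Both 4 day libraries were under all others. Against L2i Ldhb fell 4.98-fold at 4 days (log2 -2.32 ± 0.22, adjusted p = 7.7e-05), against LIM 3.44-fold (adjusted p = 0.00064) and against 35 h 5.78-fold (adjusted p = 9.2e-05), each called with any 1 library left out. With the line as a block it was also called lower in LIM than in L2i (log2 -0.55, adjusted p = 0.0243, against 0.112 without) and higher at 35 h than in LIM (0.012, against 0.0717 without).

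Ldha was at 631 (R1) and 724 (CGR8) CPM in L2i. LFAI cells held 845 and 843 at 35 h and 1285 and 2011 at 4 days. In LIM it was at 408 (R1) and 1782 (CGR8) CPM, below and above both L2i libraries. The 2.43-fold rise at 4 days was not called without the block (log2 1.28 ± 0.53, adjusted p = 0.0797) and was with it (log2 1.23, adjusted p = 0.0318). It was also called with either LIM library left out (0.0018 each). The per-length ratio of Ldhb to Ldha was 1.94 (R1) and 2.00 (CGR8) in L2i, 1.88 and 0.607 in LIM, and 1.80 and 1.89 at 35 h. At 4 days it was 0.172 and 0.157, so the per-length share of Ldhb in the pair went from 66 and 66.7% to 14.7 and 13.6%. The size of these shares rests on the exon lengths used, 3310 bases for Ldha and 1570 for Ldhb. Of the 50-base words, 21% for Ldhb and 9.26% for Ldha are shared with other genes, so the shares are uncertain. The plot of paired genes shows the ratio of Ldhb to Ldha turning over between 35 h and 4 days in both lines.

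**Figure D2:**
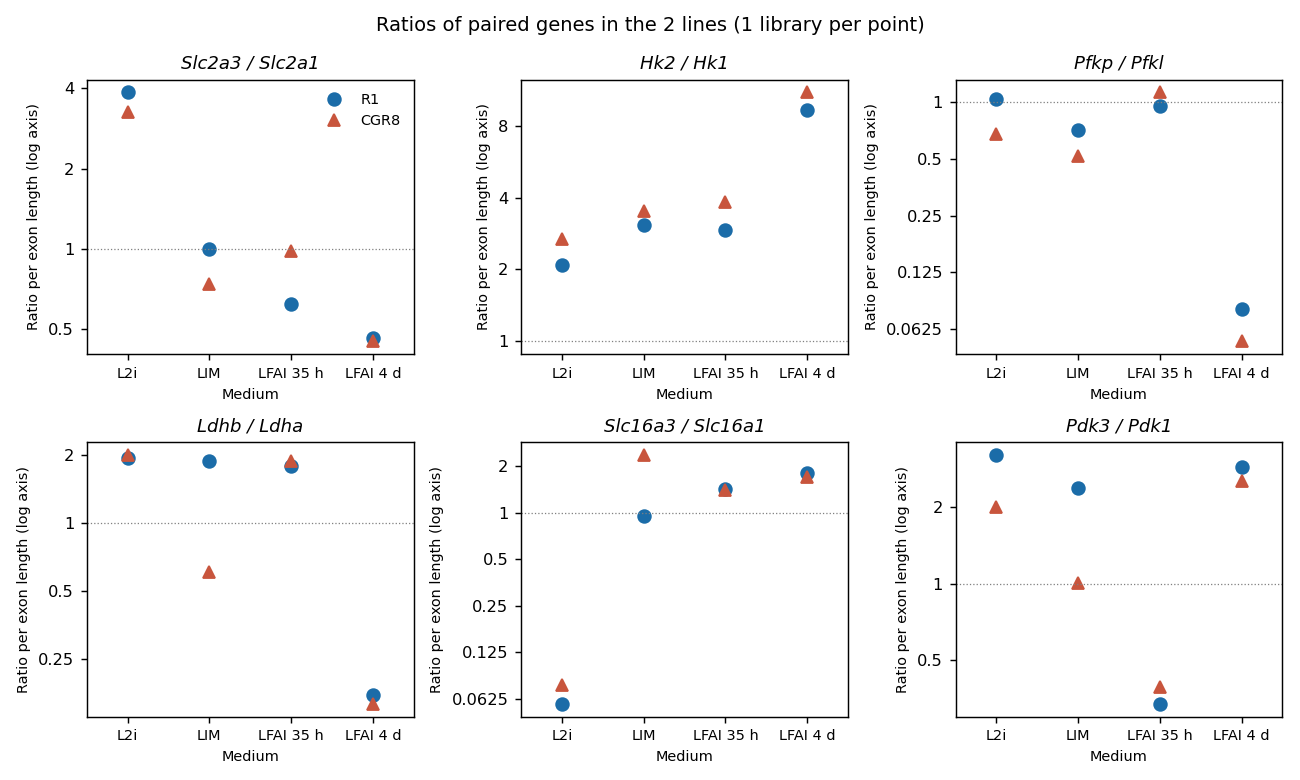
Per-length ratio of 6 gene pairs (log axis) in L2i, LIM, LFAI 35 h and LFAI 4 d, with circles for R1 and triangles for CGR8, 1 library each, and a dotted line at a ratio of 1. Hk2 / Hk1 is highest and Pfkp / Pfkl and Ldhb / Ldha lowest at 4 days in both lines, Slc16a3 / Slc16a1 is under 0.1 only in L2i, and Pdk3 / Pdk1 is lowest at 35 h.

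Lactate leaves the cell through monocarboxylate transporters, of which Slc16a1 encodes MCT1 and Slc16a3 encodes MCT4, the low-affinity exporter of glycolytic cells. Slc16a3 had the largest change of the 33. It stood at 10.7 (R1) and 16.2 (CGR8) CPM in L2i and 117 and 431 in LIM. LFAI cells held 238 and 215 at 35 h and 320.5 and 377 at 4 days. No library of another medium came near the L2i pair. The rises over L2i were 20.5-fold in LIM (log2 4.36 ± 0.55, adjusted p = 0.0014), 17.0-fold at 35 h (log2 4.09 ± 0.55, adjusted p = 0.0021) and 26.1-fold at 4 days (log2 4.71 ± 0.56, adjusted p = 0.00025), each called with any 1 library left out. Slc16a1 ranged from 103 to 185 CPM with no call. The per-length ratio of Slc16a3 to Slc16a1 was 0.0577 (R1) and 0.0762 (CGR8) in L2i, 0.945 and 2.36 in LIM, 1.42 and 1.40 at 35 h, and 1.81 and 1.70 at 4 days.

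On the mitochondrial side, Mpc1 and Mpc2 encode the subunits of the mitochondrial pyruvate carrier. Mpc1 was at 31.9 (R1) and 21.0 (CGR8) CPM in L2i and 12.1 and 14.3 in LIM. It was at 11.7 and 10.3 at 35 h and at 5.92 and 3.79 at 4 days of LFAI. It was below both L2i libraries everywhere else and lowest at 4 days. The fall from L2i was 5.45-fold at 4 days (log2 -2.45 ± 0.31, adjusted p = 0.00032), called with each library left out. The smaller falls in LIM (2.01-fold, adjusted p = 0.0407) and at 35 h (2.41-fold, adjusted p = 0.0216) were less firm. The first was lost without R1 L2i, either LIM or either 35 h library (0.0525 to 0.251), the second without R1 L2i or either 35 h library (0.0967 to 0.16). Mpc1 was also lower at 4 days than in LIM (2.71-fold, adjusted p = 0.0089) and than at 35 h (2.26-fold, adjusted p = 0.0159), both lost without CGR8 4 days (0.066 and 0.0968) and the latter also without R1 35 h (0.0611). Of its 50-base words, 26.3% are shared with other genes.

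Mpc2 went from 23.2 (R1) and 17.6 (CGR8) CPM in L2i to 9.33 and 10.8 in LIM and 8.43 and 8.49 after 4 days in LFAI, with 14.2 and 11.9 at 35 h. The fall was 2.03-fold in LIM (adjusted p = 0.0171) and 2.41-fold at 4 days (adjusted p = 0.0026). The LIM call was lost without R1 L2i (0.113) or R1 LIM (0.0988). Pdha1 and Pdhb encode both subunits of the first enzyme of the pyruvate dehydrogenase complex. Pdha1 fell 1.65-fold at 4 days against L2i (400.5 and 366 against 226 and 238 CPM, adjusted p = 0.0039) and 1.46-fold against LIM (adjusted p = 0.0221), the latter lost without either 4 day library or R1 LIM (0.0776 to 0.116). Pdhb, at 92.3 to 151 CPM, was not called.

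The Pdk kinases phosphorylate pyruvate dehydrogenase and shut it down. In the first set Pdk1 was high at 35 h of LFAI and back near its L2i level at 4 days. It stood at 36.8 (R1) and 71.4 (CGR8) CPM in L2i, 292 and 269 at 35 h, and 53.5 and 68.7 at 4 days, with 44.4 and 146 in LIM. Both 35 h libraries lay above all others. The rise at 35 h over L2i was 5.20-fold (log2 2.38 ± 0.50, adjusted p = 0.0154), lost without R1 L2i (log2 1.99, adjusted p = 0.107) or R1 35 h (0.0555). The fall to 4 days was 4.60-fold (adjusted p = 0.0093), lost without R1 4 days (0.0669). Against LIM, Pdk1 at 35 h was 2.95-fold higher (adjusted p = 0.0974, 0.0153 with the line block).

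The other kinases had lower levels or smaller changes. Pdk3 was 1.63-fold higher at 4 days than at 35 h (32.1 and 34.5 against 50.9 and 57.6 CPM, adjusted p = 0.0205), lost without either 35 h library or CGR8 4 days (0.0728 to 0.117). Pdk4 was 2.99-fold lower at 4 days than in L2i (3.22 and 6.04 against 1.64 and 1.44 CPM, adjusted p = 0.0276) and 3.38-fold lower than at 35 h (adjusted p = 0.0221). Leaving out CGR8 L2i or either 4 day library ended the first (0.0904 to 0.149), and any of the 4 libraries compared ended the second (0.0522 to 0.109). Pdk2, at 2.03 to 8.92 CPM, was 2.58-fold lower at 4 days than in LIM (adjusted p = 0.0307), lost without CGR8 4 days (0.178) or CGR8 LIM (0.162), and its 2.10-fold difference from L2i was called only with the block (0.0481, 0.0536 without). Per exon length, Pdk3 transcripts were 3.23 (R1) and 2.02 (CGR8) times those of Pdk1 in L2i, but 0.334 and 0.39 times at 35 h.

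LFAI was then set against LIM, which share IWP2. LIM adds the MEK inhibitor, LFAI adds FGF2 and Activin A, and the groups also differ in time since L2i. At 35 h, edgeR called 0 members higher, where 1.92% of all genes were (4 members and 8.59% of all genes at an unadjusted p under 0.05), and 2 lower (Slc2a1 and Eno3, background 4.46%). By the DESeq2 Wald test 2 were higher and 4 lower, and by limma-voom 0 and 3, for which the share of all genes was not computed. With the line as a block 3 were higher (Ldhb, Pdk1 and Pfkm) and 4 lower (Slc2a3 and Pfkfb3 added), where 1489 of all 15525 genes were called in either direction. At 4 days, edgeR called 0 higher (background 12.3%, and 0 also by DESeq2, by limma-voom and at an unadjusted p under 0.05, where 18.5% of all genes were) and 8 lower (17.2%), namely Slc2a1, Slc2a3, Hk1, Pfkp, Ldhb, Pdk2, Pdha1 and Mpc1. The count of 0 higher at 4 days changed when CGR8 LIM was left out, which leaves a single LIM culture. From 35 h to 4 days in LFAI, 2 were called higher (Eno3 and Pdk3, background 17.7%) and 6 lower (Hk1, Pfkp, Ldhb, Pdk1, Pdk4 and Mpc1, background 19%). Over the 6 comparisons, which share libraries, there were 48 calls of members, of which 21 held with each of the 8 libraries left out. The share of calls kept was not computed over all genes, so these counts describe the members only.

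The R1 time course gave the order of these shifts. With 1 library per point there is no test: ratios carry a 95% interval that covers counting error only, and members are counted at a 2-fold difference. On day 2 in LFAI, 5 members were at least 2-fold higher than on day 0 (background 10.6%) and 4 lower (10.8%). On day 4 in LIM, 3 members were at least 2-fold higher than on day 0 (background 8.17%) and 0 lower (7.22%). These LIM counts rest on values near the limit, with Eno3 at log2 1.01, Pdk2 at 1.02 and Pdk1 at -0.996, and CPM without TMM gave 1 higher and 1 lower. On day 4 in LFAI 5 were higher (16.3%) and 5 lower (13.4%). LFAI over LIM on day 4 gave 3 higher (14.6%) and 5 lower (12.4%). The 2-fold counts use log2 CPM with a prior count of 2, and the ratios use none.

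Ldhb was at 332 CPM on day 0, 141 on day 2, 84.2 on day 3 and 84.7 on day 4 in LFAI, and at 440.0 to 465 CPM on the 4 days in LIM. Ldha went from 725 to 1069.9, 1268 and 1437 CPM on days 2 to 4 in LFAI, and stayed at 657 to 785 in LIM. The library labelled day 1 in LFAI held 413 CPM of Ldhb and 643 of Ldha, near day 1 in LIM (440.0 and 704). The per-length ratio of Ldhb to Ldha was 0.966 on day 0, 0.279 on day 2 and 0.124 on day 4 in LFAI, against 1.28 on day 4 in LIM. Its day 0 value lay under the 1.94 of R1 L2i in the first set, from which coating, sequencing protocol and passages in L2i (5 against 10) differ.

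Hk1 fell within 2 days in LFAI, from 204 CPM to 60.7, and was at 33.5 and 38.4 on days 3 and 4, while LIM held 168 to 238 CPM. Pfkp was later. It was at 487 CPM on day 0 and still at 642 on day 2 in LFAI, then at 284 and 160.0 on days 3 and 4, beside 598 to 730.4 CPM in LIM. Slc2a3 went from 1745 CPM to 701, 256 and 383 on days 2 to 4 in LFAI and stayed at 1588 to 1844 in LIM. Day 4 in LFAI over day 0 was 0.188 (0.171 to 0.206) for Hk1, 0.328 (0.313 to 0.345) for Pfkp and 0.22 (0.213 to 0.226) for Slc2a3.

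Pdk1 peaked on day 2 in LFAI at 408 CPM, 5.73 times its day 0 level of 71.3 (5.35 to 6.14), and was at 224 and 223 on days 3 and 4. That plateau was 3.13 times day 0 (2.91 to 3.37), whereas in the first set Pdk1 at 4 days was 1.13-fold above L2i with no call (adjusted p = 0.79). In LIM it was at 31.3 to 44.6 CPM, and on day 4 at 0.5 times day 0 (0.447 to 0.559). The library labelled day 1 in LFAI, at 36.1 CPM, was next to day 1 in LIM at 35.3 and far from the 292 CPM of R1 at 35 h.

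Slc16a3 rose in both media, day by day in LIM (80.3, 132, 151 and 196 CPM from 47.0 on day 0) and faster in LFAI (290.1, 312 and 335 on days 2 to 4). Day 4 over day 0 was 4.16 (3.82 to 4.54) in LIM and 7.13 (6.56 to 7.75) in LFAI. Both are below the folds of the first set, where L2i cells held 10.7 and 16.2 CPM. Slc2a1 on day 4 was 1.65 times day 0 in LIM (1.58 to 1.72) and 2.29 times in LFAI (2.20 to 2.39). So in this course LFAI was above LIM, by 1.39 times (1.34 to 1.44), while in the first set the cells of 4 and 6 passages in LIM were above those of 4 days in LFAI. The medium, the time in it, the coating and the passages in L2i differ between these comparisons, and their parts cannot be told apart.

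Other members that rose in LFAI were Pfkl, from 116 to 438 CPM on day 4 (3.79 times, 3.58 to 4.01), Tpi1, from 333 to 636 (1.91 times, 1.84 to 1.98), and Pkm, from 1495 to 2723 (1.82 times, 1.79 to 1.85). Mpc1 fell from 24.1 to 8.58 CPM (0.356 times, 0.286 to 0.44) and Pdha1 from 321 to 168 (0.523 times, 0.497 to 0.55). In LIM, Mpc1 was at 27.9 CPM on day 4, 1.16 times day 0 (0.994 to 1.35), unlike the called fall in the first set. Eno3 in LIM went from 14.6 to 29.6 CPM (2.03 times, 1.71 to 2.42). Pfkfb3 was at 14.6 CPM on day 4 in LIM, 0.63 times day 0 (0.524 to 0.755), where both LIM libraries of the first set were above their L2i libraries.

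**Figure D3:**
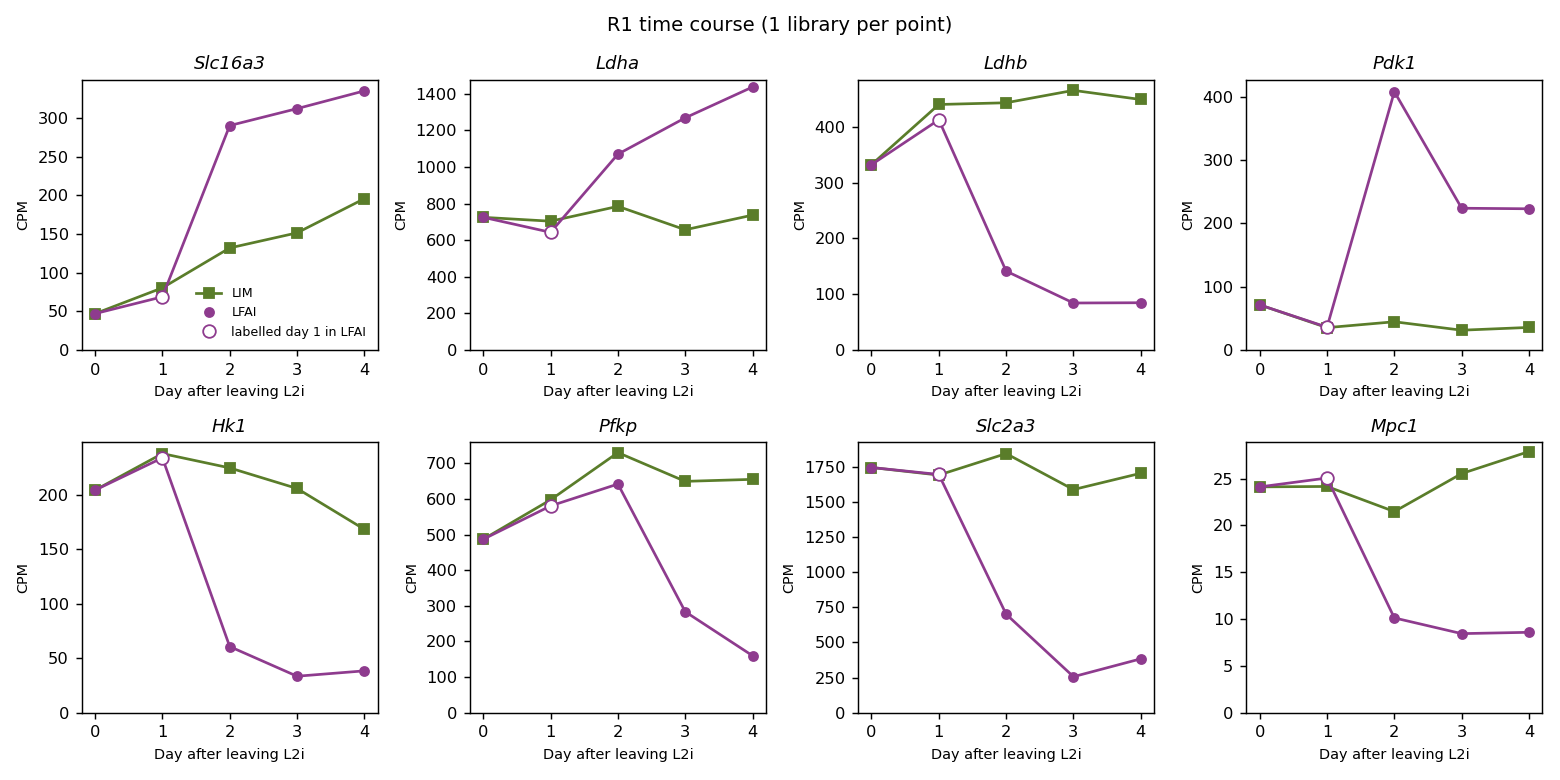
CPM of 8 members by day after leaving L2i in the R1 time course, 1 library per point, with squares for LIM and circles for LFAI, and the library labelled day 1 in LFAI as an open circle. Ldhb, Hk1, Slc2a3 and Mpc1 are low from day 2 in LFAI, Pfkp only from day 3, Pdk1 peaks at 408 on day 2, and the open circles lie beside the day 1 values of LIM.

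The lines were compared over the 4 media of the first set, in the same edgeR fit with the line added. Only Slc2a1 was called, 1.50-fold higher in CGR8 (log2 0.58 ± 0.09, adjusted p = 0.0273) and higher in 4 of 4 media, by a log2 difference of 0.43 to 0.71. Of all genes, 0.29% were called higher in CGR8 and 0.251% lower. At an unadjusted p under 0.05, 16 members were higher in CGR8 and 1 lower, beside 4.95 and 5.29% of all genes. The Slc2a1 call was lost without either L2i or either LIM library (adjusted p 0.109 to 0.134). By the DESeq2 Wald test 4 members were called higher (Slc2a1, Slc2a3, Hk2 and Pgk1), for which the share of all genes was not computed. Of the 12 ratios, Hk2 to Hk1 was higher in CGR8 in 4 of 4 media (mean log2 difference 0.30 ± 0.09 SD) and Pfkm to Pfkl lower in 4 of 4 (-0.89 ± 0.44), at an exact two-sided sign-flip p of 0.125 each, the smallest 4 pairs allow (0.5 adjusted over the 12).

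The larger contrast between lines was in LIM alone. There 30 of 33 members were higher in CGR8, beside 24 in L2i, 20 at 35 h and 23 at 4 days of LFAI. The share of all genes higher in CGR8 by any amount was not counted. Their median log2 line difference was 0.0033 in LIM and 0.00 in each other group. In LIM 11 members were at least 2-fold higher, where 7% of all genes were, while 0 were 2-fold lower (background 3.3%). In L2i and after 4 days in LFAI 0 members were 2-fold higher in CGR8 (backgrounds 6.42 and 2.76%) and after 35 h 3 were (6.58%), namely Slc2a3, Pfkfb2 and Pfkfb4. The 11 in LIM were Ldha and Pgk1 (log2 2.13 each), Tpi1 (1.93), Slc16a3 (1.89), Pdk1 (1.71), Aldoc and Aldoa (1.70 each), Pfkl and Pfkfb3 (1.67 each), Pfkp (1.21) and Pkm (1.05). Aldoa, for one, stood at 719 (R1) and 2332 (CGR8) CPM in LIM, beside 1170.5 and 1355 in L2i. Tpi1 stood at 220.5 and 841, beside 378 and 422. Summed over the 33, LIM held 8281 (R1) and 16543 (CGR8) CPM, and the 6 other libraries 9206 to 11602. With 1 library per line and medium, a difference between the lines in their response to LIM cannot be tested, and the CGR8 culture also had 6 passages in LIM to 4 for R1.

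In LIM, most targets of hypoxia-inducible factors outside glycolysis were also higher in CGR8. Of 15 such genes, 14 were higher in CGR8 LIM than in R1 LIM and 10 at least 2-fold (7% of all genes), and their sum was 742 (R1) and 1463 (CGR8) CPM. Bnip3, a mitophagy receptor, was at 12.0 and 163 CPM, and Egln3, an oxygen-sensing hydroxylase, at 4.38 and 61.9, both named here after their values were seen. Neither was called in any of the 6 group comparisons or between the lines. Kdm3a went the other way in LIM, at 361 (R1) and 332 (CGR8) CPM. In L2i the sums were 786 in both lines, at 35 h of LFAI 665 and 806, and at 4 days 390.2 and 668, with 3, 5 and 5 of the 15 at least 2-fold higher in CGR8 (6.42, 6.58 and 2.76% of all genes in turn). By any amount, 9, 11 and 12 of these 15 genes were higher in CGR8 in turn, a count not made over all genes. Their part in the line difference of the members was not tested. Leaving out either LIM library leaves a single LIM culture to set against L2i. Aldoa and Tpi1 were then lower in LIM without CGR8 LIM (log2 -0.81 and -0.85) and higher without R1 LIM (log2 0.89 and 1.08).

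**Figure D4:**
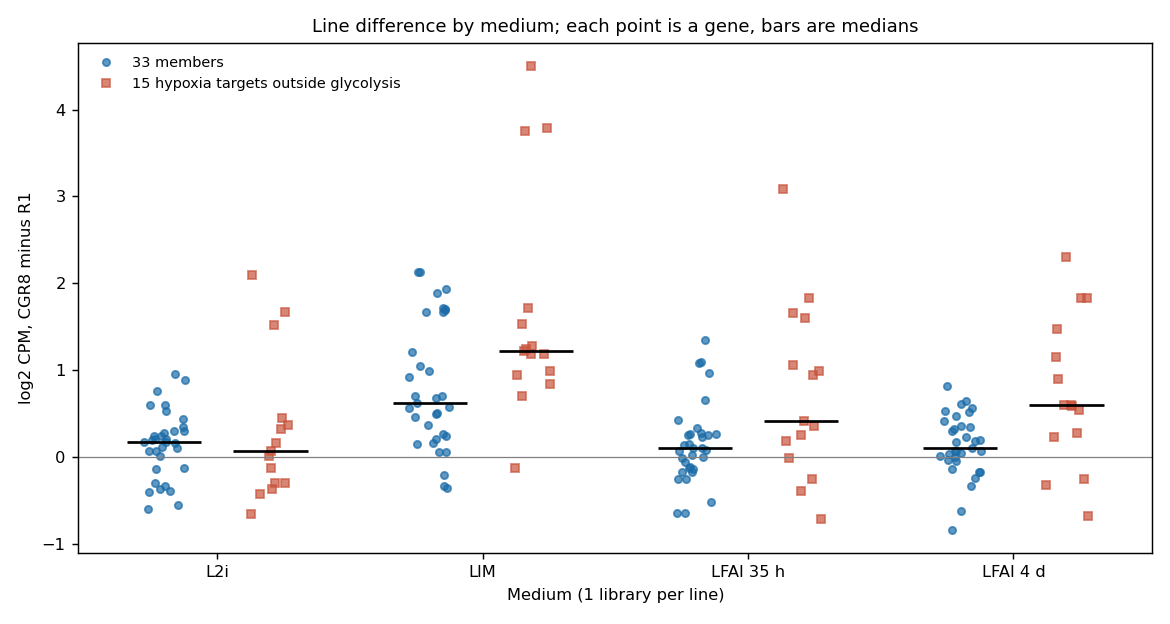
Log2 CPM of CGR8 minus R1 (prior count of 2) in each medium for the 33 members (circles) and 15 hypoxia targets outside glycolysis (squares), each point 1 gene, bars the medians. Members centre at medians of 0.18 in L2i, 0.10 in both LFAI groups and at 0.62 in LIM, with 11 of them at 1 or more there.

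Other genes of the pathway were read from lists. Of 32 further glycolysis and pyruvate genes, 25 could be tested. In LIM against L2i 2 were higher and 3 lower, at 35 h 4 and 3, and at 4 days 5 and 7. The background was 11.3% up and 7.81% down for LIM, 7.35 and 7.16% for 35 h, and 21.5 and 23.3% for 4 days, so the shares of this list in LIM and at 4 days were near those of all genes. Tigar, a fructose bisphosphatase that slows glycolysis, was lower than in L2i in all 3 (2.35-fold in LIM, adjusted p = 0.0018, 2.66-fold at 35 h, 0.0013, and 4.51-fold at 4 days, 3.1e-05). Pdp2, a phosphatase that reactivates pyruvate dehydrogenase, was lower as well (2.79-, 2.70- and 4.19-fold, adjusted p = 0.0053, 0.0075 and 0.00033), as was Pgm2, a phosphoglucomutase (2.39-, 1.80- and 4.10-fold, adjusted p = 0.0041, 0.0257 and 0.00012). Of 7 pentose phosphate genes 3 rose at 4 days against L2i, among them G6pdx, the entry enzyme (1.70-fold, adjusted p = 0.0075). Of 18 tricarboxylic acid cycle genes, 2 rose (Dlst 1.86-fold and Suclg1 1.34-fold) and 2 fell (Idh2 2.10-fold and Sucla2 1.39-fold) at 4 days. That is 22.2% of the cycle genes and 42.9% of the pentose phosphate genes called in either direction. Of all 15525 genes, 6960 were called in either direction (21.5% higher and 23.3% lower). The share of the cycle genes was thus below that of all genes, and that of the pentose phosphate genes near it.

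Among 16 known regulators, 5 were higher and 6 lower at 4 days against L2i, where 21.5 and 23.3% of all genes were. Myc, an activator of glycolytic genes, was at 8.09 (R1) and 7.97 (CGR8) CPM in L2i, 29.7 and 18.9 in LIM, 38.3 and 34.1 at 35 h and 94.8 and 53.7 at 4 days, 9.24-fold above L2i (adjusted p = 9.7e-05). Lin28a, an RNA-binding protein of pluripotent cells, rose 7.53-fold (adjusted p = 2.3e-05) and Lin28b 11.4-fold (adjusted p = 2.5e-05). Esrrb, a naive nuclear receptor, fell 141-fold (adjusted p = 6.3e-06). Epas1, which encodes HIF2A, was at 54.3 and 21.6 CPM in L2i, 102 and 71.2 in LIM, 131 and 130.2 at 35 h and 3.84 and 2.22 at 4 days. Both 4 day libraries lay under all others. In the time course Epas1 was at 54.4 CPM on day 0 and at 184, 87.5 and 47.6 on days 2 to 4 in LFAI, so day 4 was near day 0 there. Hif1a, which encodes HIF1A, went the other way in the first set. By the edgeR test it was 1.76-fold higher at 4 days than in L2i (adjusted p = 0.0038). In that comparison Arnt was 1.57-fold lower (adjusted p = 0.0040) and Vhl 2.16-fold lower (adjusted p = 0.0011). Myc, at 6.50 CPM on day 0, was at 70.2, 52.0 and 44.3 on days 2 to 4 in LFAI, but in LIM it stayed below day 0, at 0.713 to 3.63, unlike the LIM libraries of the first set.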

How the data were processed

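RNA of 17 mouse embryonic stem cell libraries was measured. The deposited values are counts of reads per gene that the authors made, and the submitters' processing notes name HISAT2 2.0.4, HTSeq 0.6.1 and DESeq2 1.10.1 with GRCm38. Libraries came from a stranded mRNA kit per the labels' protocols. The strand setting and annotation release are not given in the sources used here. Rows that name no gene held 47.7 to 51.9% of all reads (multiply aligned reads alone 36.2 to 45.2%) and were left out. That loss lowers counts of genes with near-identical copies. Of 47729 gene IDs, 47310 were matched to GENCODE M21, and exon length is the union of a gene's exons.

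One edgeR 4.0.16 fit (R 4.3.3) took the 8 libraries of both lines (TMM factors 0.9639 to 1.033, 15525 genes kept by filterByExpr, quasi-likelihood test, 4 residual degrees of freedom), with Benjamini-Hochberg adjusted p under 0.05. The 9 time course libraries (15682 genes at 1 CPM or more, TMM 0.9695 to 1.049) were compared by log2 CPM with a prior count of 2. Intervals are 95% exact binomial intervals of the counts and cover counting error only. Because 1 library stands for each line, p-values measure the spread between these libraries. The same line recurs in each group, so line pairs the libraries, and deviations of the lines from the group means correlated at 0.0409 to 0.395. No pair of libraries was identical. Alternatives were DESeq2 1.42.0 (test and size factors), limma-voom (limma 3.58.1), no filter, the line as a block, a test against a log2 fold of 0.5, only the libraries compared, other pseudocounts and prior counts, and leaving out each library. Scripts were tested on simulated data. All 33 members could be named, and of the other lists up to 4 called genes with the smallest p in a comparison. Hif1a, Arnt and Vhl were added beside Epas1, and Bnip3 and Egln3, which were not called, were added for their values in LIM. The members and lists were chosen with earlier results of these data known.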

Additional observations from a re-analysis of the deposited data

Results flagged for a closer look

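Over the 6 group comparisons, 12 member results went up by a log2 difference of 0.5 or more in one line and down by as much in the other. With 1 library per line and group, the difference between the lines was not tested for any of them. How many of all genes met the same rule was not counted. In LIM against L2i, R1 fell and CGR8 rose for Ldha (log2 -0.63 and 1.30, a difference of 1.93), Tpi1 (-0.78 and 1.00, 1.78) and Aldoa (-0.70 and 0.78, 1.49).

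After 35 h in LFAI against LIM, R1 was higher and CGR8 lower for 6 members. The difference between the lines was -2.13 for Ldha (log2 1.05 in R1 and -1.08 in CGR8), -2.03 for Slc16a3 (1.03 and -1.0) and -1.86 for Pgk1 (0.70 and -1.16). It was -1.65 for Pfkl (0.63 and -1.03), -1.60 for Tpi1 (0.70 and -0.90) and -1.45 for Aldoa (0.55 and -0.89). After 4 days in LFAI against LIM it was -1.60 for Pfkfb3 (0.58 and -1.02) and -1.31 for Pgk1 (0.79 and -0.52). All 11 of these results use the LIM libraries. The remaining one was Pfkfb4 from 35 h to 4 days in LFAI, at -1.68 (0.78 in R1 and -0.90 in CGR8), a gene at 1.89 to 5.98 CPM.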

How the results depend on the processing

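With 1 library per line and group, single libraries moved many counts of called members. Apart from the line block, the share of all genes called was not computed for these alternatives. Nor was it computed for calls kept with each library left out. The counts below thus describe members only and cannot be set against a background. Leaving out a library also leaves 1 culture in its group. Leaving out each library in turn gave 3 to 14 members higher and 0 to 3 lower in LIM against L2i, 1 to 6 higher and 0 to 2 lower at 35 h against L2i, and 2 to 10 higher at 4 days against L2i. Against LIM it gave 0 to 2 higher and 0 to 2 lower at 35 h, and 0 to 7 higher and 5 to 11 lower at 4 days. From 35 h to 4 days it gave 1 to 6 higher, and for CGR8 over R1 0 to 2 higher. With no filter on low counts, members called higher numbered 11 in LIM against L2i, 7 at 35 h against L2i, 3 at 35 h and 1 at 4 days against LIM, 5 from 35 h to 4 days and 13 for CGR8 over R1, with 4 lower at 35 h against LIM. By the DESeq2 Wald test 4 were higher in CGR8, and 2 higher and 4 lower at 35 h against LIM. With only the 4 libraries compared, 1 was lower in LIM and 1 at 35 h against L2i, 0 were lower at 35 h against LIM, and 6 were higher from 35 h to 4 days. Tested against a log2 fold of 0.5, 0 were lower in LIM or at 35 h against L2i, 0 were lower at 35 h against LIM, 2 were higher at 4 days against L2i, 5 lower at 4 days against LIM, 1 higher from 35 h to 4 days and 0 higher in CGR8.

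With the replicate block for line, 3 members were higher and 4 lower at 35 h against LIM, where the calls over all genes went from 990 to 1489. The block moved no other count of members by over 1.5 times and ended no member's call. CPM without TMM gave 1 higher and 1 lower on day 4 in LIM. Without CGR8 LIM, 3 values changed sign, namely Aldoa (-0.807) and Tpi1 (-0.855) in LIM against L2i and Pfkl (1.05) at 4 days against LIM. The causes were not tested. Of 3432 checks of single members, 3175 kept direction and side of the threshold, 131 gained a call and 123 lost one. Pseudocounts of 0.5 or 2 moved no ratio past the spread between libraries. Members under about 10 CPM (Eno2, Pdk2, Pdk4, Pfkfb2, Pfkfb4) have the widest counting error.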
